A study of Mus musculus with 6 samples.

Results

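The 10 genes described here were grouped as metallothioneins and antioxidant genes. They were picked by gene symbol: Mt1, Mt2, Gpx3, Sod2, Sod3, Hmox1, Nqo1, Txnip, Txnrd1 and Car3, out of 52997 symbols in the count table. All 10 symbols were in the table. The RNA came from mesenchymal stromal cells, the connective tissue cells of an organ, of C57BL/6 mice aged 8 weeks at homeostasis, with no treatment or altered allele named in either group. One group was cells of hindlimb skeletal muscle and the other was cells of inguinal, axillary, brachial and cervical lymph nodes combined into one sample type, with 3 libraries each. Each library held 1000 cells passed through a sorter in succession, and the sources used here do not name the sorting markers. The count table numbers the muscle libraries 2, 3 and 4 and the lymph node libraries 1, 2 and 3. The series calls the libraries of a group biological replicates, but a pair of muscle titles carries the same number with different letters. Whether those came from separate animals is not known, so p-values below measure the spread between libraries, which may be partly technical.

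Metallothioneins are small cysteine-rich proteins that bind zinc and copper, and their genes are switched on by metal through the transcription factor MTF1 and also by glucocorticoids and oxidants. Superoxide dismutases turn superoxide into hydrogen peroxide, which glutathione peroxidases and peroxiredoxins reduce with electrons from glutathione or thioredoxin. The transcription factor NRF2, held down by KEAP1, drives many of these genes, with Hmox1, Nqo1 and Txnrd1 among its best known targets. In connective tissue, secreted members such as Gpx3 and Sod3 act outside the cell, while the others work inside it.

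Levels are CPM, counts divided by the TMM-scaled library size and set to a common total, and differences are log2 fold changes, muscle minus lymph node, from edgeR's quasi-likelihood F test over all 10823 tested genes. A gene was called at a Benjamini-Hochberg adjusted p under 0.05. Total counts ran from 415460 to 2397134, and muscle library 4 was the shallowest. That library also stood apart in its content: the summed B cell, red blood cell and T cell markers reached 2078 CPM, 653 CPM and 519 CPM there. In the other 5 libraries those sums ran from 17.7 to 263 CPM, 13.1 to 18.4 CPM and 4.57 to 15.4 CPM. A list of 17 myeloid genes summed to 1930 CPM in muscle library 4 and to between 28.5 and 55.8 CPM elsewhere, but 1730 CPM of the former were Cd74 and Ptprc, which B cells and other leukocytes also express, and the macrophage genes Cd68, Csf1r, Itgam, Fcgr1, Cx3cr1 and Aif1 had 0 counts there. Stromal identity genes such as Pdgfra and Col1a1 (14 of 14 tested) were present in every library, with sums of 139061, 129410 and 118807 CPM in muscle libraries 2, 3 and 4 and 174173, 163164 and 171032 CPM in lymph node libraries 1, 2 and 3. Every muscle sum was thus below every lymph node sum, the direction in which most members differed. By edgeR 12 of the 14 log2 fold changes were negative, with 0 called (3 at an unadjusted p under 0.05, 1 called by DESeq2 and 1 by limma-voom) and 3 called lower without muscle library 4. The part of this difference in the levels of the members was not tested. The difference of each member is given with and without muscle library 4.

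Mt1 and Mt2 lie next to each other, and the bases before their first annotated starts are shown because these neighbours had the same order of libraries within lymph node. The windows come from RefSeq (GRCm38.p6, plus strand), at chr8:94178839-94179081 for Mt1 and chr8:94172368-94172617 for Mt2, and stop before the first annotated exon. Capitals mark the core of the metal response element, which is TGCACNC or TGCGCNC on either strand.
Mt1: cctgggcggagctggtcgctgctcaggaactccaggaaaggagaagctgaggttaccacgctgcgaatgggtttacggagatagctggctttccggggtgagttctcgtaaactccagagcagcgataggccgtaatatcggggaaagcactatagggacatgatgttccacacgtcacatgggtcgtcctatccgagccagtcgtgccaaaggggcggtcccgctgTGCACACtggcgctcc
Mt2: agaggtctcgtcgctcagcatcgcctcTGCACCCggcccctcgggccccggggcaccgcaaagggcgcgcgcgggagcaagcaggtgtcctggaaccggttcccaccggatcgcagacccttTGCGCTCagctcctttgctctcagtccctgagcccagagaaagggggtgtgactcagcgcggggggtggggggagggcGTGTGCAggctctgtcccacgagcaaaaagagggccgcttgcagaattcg
The Mt1 window held 1 core and the Mt2 window held 3. Bases after the first annotated start were not searched, and a transcript that starts later has promoter bases outside its window. The numbers of cores therefore do not compare the whole promoters of Mt1 and Mt2. Of 32536 distinct promoter windows of 250 bases in the same table, 21.5% held at least 1 core and 5.21% at least 2. Promoters were found for 7 of the 10 genes, and in the other 5 of these a core was present in Txnip alone. The core of the antioxidant response element, TGACNNNGC, matched in Mt2 and in 1 of 3 Txnrd1 promoters, against 10.2% of all windows. The Mt2 match, TGACTCAGC, overlaps an AP-1 match (TGANTCA, in 6.73% of all windows), and no E-box (CACGTG, in 6.04% of all windows) was found in any of the 7 genes. These are letter matches, not measured binding sites, and the windows cover only bases before the RefSeq starts.

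Among the 9 members that passed the filter on low counts, Mt1 and Car3 fell in muscle relative to lymph node, none rose, and 7 were not called. Of all tested genes 2.86% were called lower. Car3 passed the filter on its lymph node counts alone, so it could not have been called higher in muscle. The 3 muscle levels lay below every lymph node level for 7 of the 9 (Mt1, Mt2, Gpx3, Hmox1, Txnip, Txnrd1 and Car3), against 13.7% of all tested genes. Without muscle library 4 those same 7 were called lower, 0 higher, where 7.58% of all tested genes were called lower. Sod2 and Sod3 overlapped between tissues and were called in neither fit. The median log2 fold change of the 9 was -1.54, and -1.12 without muscle library 4, beside 0.02 and 0.01 for all tested genes. The members were chosen with earlier results of these data known, so these shares and medians describe them and give no independent support.

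**Figure D1:**
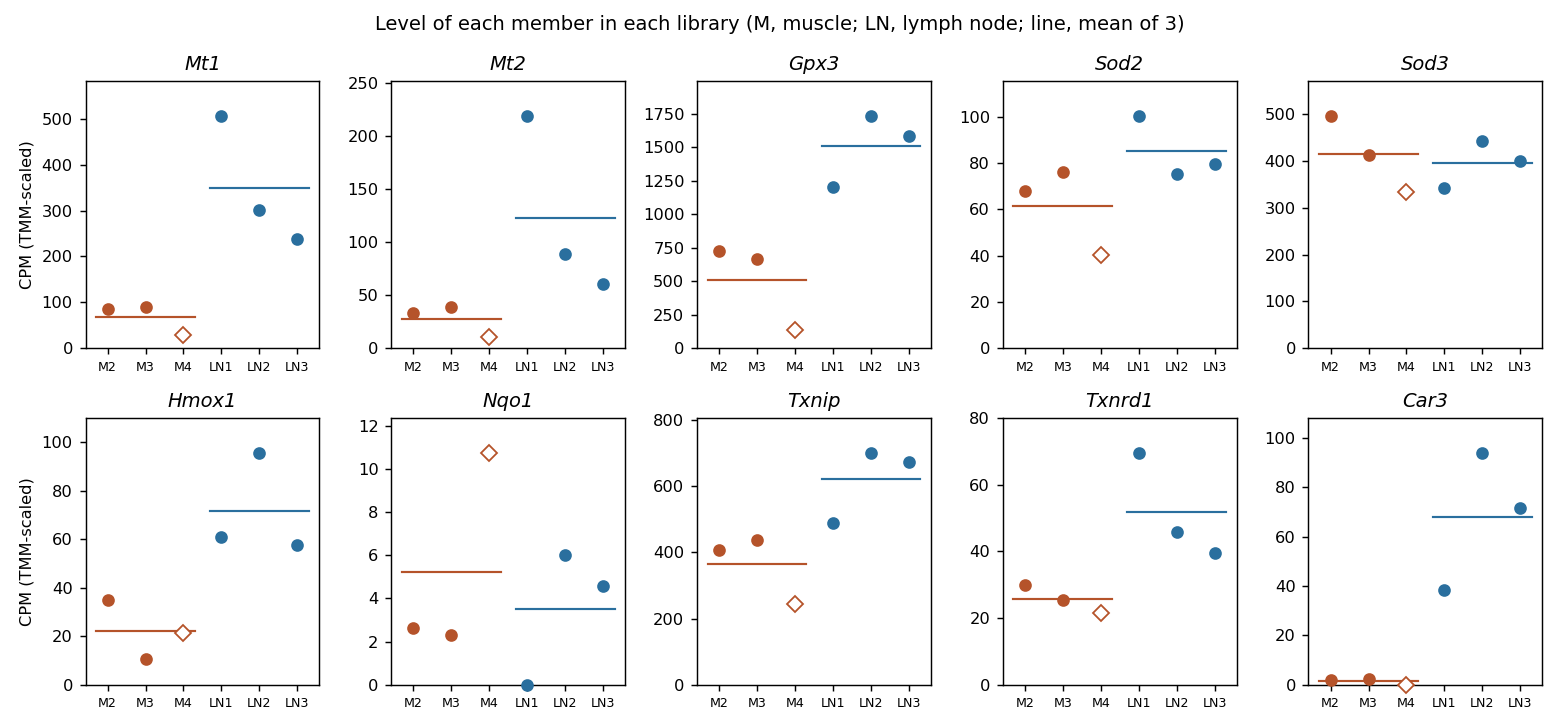
Level of each of the 10 genes in each library, in CPM scaled by the TMM library size, on axes that start at 0. Points are single libraries (M, muscle; LN, lymph node), the open diamond is muscle library 4 and lines are means of 3. In 7 panels every muscle point lies below every lymph node point, while Sod2, Sod3 and Nqo1 overlap.

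Mt1 (chr8:94179082-94180327, GRCm38) measured 84.9, 89.9 and 29.6 CPM in muscle libraries 2, 3 and 4, and 507, 302 and 239 CPM in lymph node libraries 1, 2 and 3. Muscle libraries 2 and 3 were nearly equal, muscle library 4 lay below them on 11 counts, and lymph node library 1 was the highest. The mean of muscle was 68.1 ± 33.5 CPM and that of lymph node 349 ± 140.0 CPM (SD over 3 libraries each), a 4.81-fold fall (log2 fold change -2.27 ± 0.39 SE, edgeR adjusted p = 0.0109). In bulk libraries fewer cells that express a gene and less RNA per cell cannot be told apart. Without muscle library 4 the log2 fold change was -2.0 ± 0.27 (adjusted p = 1.42e-04). The call was lost without muscle library 2 (adjusted p = 0.0505) or lymph node library 1 (0.0655) or 2 (0.0645), with log2 fold changes between -2.52 and -1.93 when any 1 library was left out.

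Mt2 (chr8:94172664-94173568) encodes the other widely expressed metallothionein. It measured 32.7, 38.4 and 10.8 CPM in muscle libraries 2, 3 and 4, and 219, 88.5 and 60.1 CPM in lymph node libraries 1, 2 and 3. The tissues did not overlap, but lymph node library 1 was 3.65-fold above library 3. The log2 fold change was -2.01 ± 0.52 (edgeR adjusted p = 0.0683, not called), and -1.79 ± 0.44 without muscle library 4 (adjusted p = 0.0144). Leaving out lymph node library 1 moved it to -1.33 (adjusted p = 0.242).

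The Mt2 counts are uncertain because a gene model on the opposite strand, Gm45774, covers the gene: 63.4% of the 25-base words in Mt2 transcripts also occur in transcripts of other genes. Strand use in counting is not stated, so reads of the pair cannot be told apart. Gm45774 had 11, 4 and 2 counts in muscle libraries 2, 3 and 4 and 76, 71 and 52 in lymph node libraries 1, 2 and 3. It was itself lower in muscle (-2.76 ± 0.44, adjusted p = 0.00755). With its counts added to Mt2, an alternative chosen after the data were seen, Mt2 had a log2 fold change of -2.15 ± 0.46 and was called (adjusted p = 0.030). Mt1 shares 0.24% of its words with other genes.

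**Figure D2:**
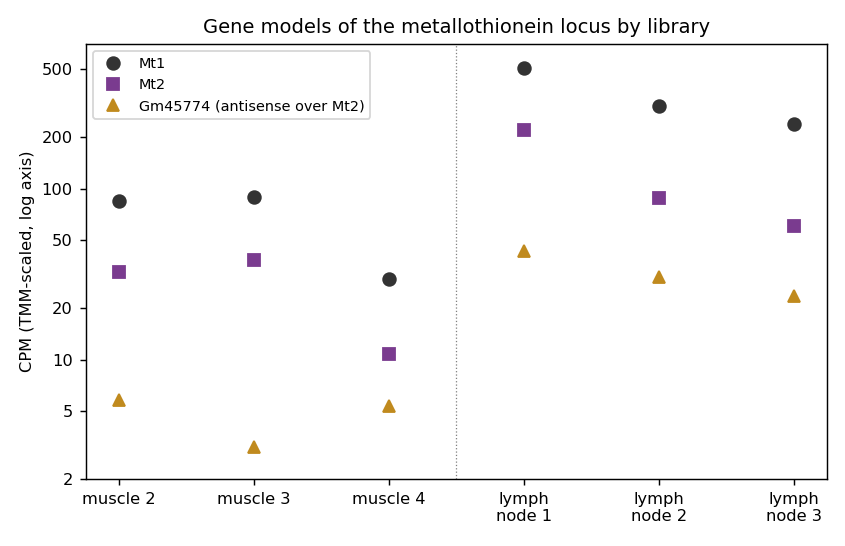
Levels of Mt1, Mt2 and the antisense gene model Gm45774 in each library, in CPM on a log axis, 1 point per library. Within lymph node all 3 models are highest in library 1 and lowest in library 3 (507, 302 and 239 CPM for Mt1), and all muscle points lie below the lymph node points of the same model.

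Mt1 made up most of the summed Mt1 and Mt2 counts in each of the 6 libraries. Its share was 72.2% (95% Clopper-Pearson interval 65.8 to 78.0), 70.1% (62.5 to 76.9) and 73.3% (44.9 to 92.2) in muscle libraries 2, 3 and 4. In lymph node libraries 1, 2 and 3 it was 69.8% (67.2 to 72.3), 77.3% (74.5 to 80.0) and 79.9% (76.6 to 82.9). The intervals of lymph node library 1 and of the other lymph node libraries do not meet, and each muscle interval overlaps that of every lymph node library. These intervals cover counting error only, and not the uncertainty of the Mt2 counts that comes from Gm45774. The other genes of the cluster were at the limit of detection: Mt3, best known in brain, and Mt4, best known in stratified epithelium, were without a count in muscle (0) and reached 2 and 3 counts in lymph node. A count of 0 allows up to 1.58, 2.31 and 8.06 CPM in muscle libraries 2, 3 and 4. Mtf1, the metal-sensing activator, was not called (means 11.3 ± 10.1 and 14.9 ± 5.08 CPM for muscle and lymph node, -0.15 ± 0.59, adjusted p = 0.95), with 0 counts in muscle library 4.

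Car3 (chr3:14863512-14872523) showed the widest difference of the members. It encodes a cytosolic carbonic anhydrase abundant in muscle fibres and fat cells, and it had 4, 3 and 0 counts in muscle libraries 2, 3 and 4 against 67, 219 and 157 in lymph node libraries 1, 2 and 3. In CPM these were 2.11, 2.31 and 0 against 38.3, 94.1 and 71.5. The lowest lymph node library was 16.6-fold above the highest muscle library. The log2 fold change was -5.09 ± 0.55 (edgeR adjusted p = 0.00114), on 7 muscle counts in all, and -4.93 ± 0.50 without muscle library 4 (adjusted p = 1.05e-05). From summed counts the lymph node level was 36 times that of muscle, with a 95% counting interval from 17.3 to 90.1. Car3 was called in every fit that left out 1 library (adjusted p at most 0.0145). It passed the filter on its lymph node counts alone, so it could be called only as lower in muscle.

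Markers of fat cells and muscle fibres were read beside Car3, since both cell types express it. Of 14 fat cell markers 5 could be tested and 4 were lower in muscle: Pparg, the regulator of fat cell formation (-4.31 ± 0.58), the fatty acid carrier Fabp4 (-3.94 ± 0.53), the lipid droplet coat gene Plin4 (-3.72 ± 0.42) and the lipase Lpl (-1.98 ± 0.22). Pparg, Fabp4 and Plin4 were low in muscle and passed the filter on their lymph node counts. Those genes could therefore be called only as lower in muscle. The defining fat cell genes were near 0 in both tissues: Adipoq reached 2 counts over the muscle libraries and 6 over the lymph node libraries, Plin1 1 and 9, Cidec 0 and 2, Cfd 1 and 1, and Lep 1 and 5. The summed fat cell list, of which Lpl was 514 ± 126 CPM in muscle and 2039 ± 151 CPM over lymph node libraries, ran from 392 to 609 CPM in muscle and from 1985 to 2303 CPM in lymph node. The summed muscle fibre markers went the other way, with 64.5 to 103 CPM in muscle and 15.4 to 20.6 CPM in lymph node. The fibre actin Acta1 had 67 and 42 counts in muscle libraries 2 and 3, the libraries that held 4 and 3 counts of Car3. The part of other cell types in the Car3 difference was not tested.

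Hmox1 (chr8:75093621-75100589) encodes haem oxygenase 1, which breaks haem into biliverdin, iron and carbon monoxide. It measured 34.8, 10.8 and 21.5 CPM in muscle libraries 2, 3 and 4, and 61.1, 95.8 and 57.8 CPM in lymph node libraries 1, 2 and 3. All lymph node libraries were above all muscle libraries, and muscle libraries 2 and 3 differed 3.24-fold from each other. The log2 fold change was -1.63 ± 0.40 (edgeR adjusted p = 0.0587, not called). It was -1.58 ± 0.35 without muscle library 4 (adjusted p = 0.00731) and -2.35 ± 0.44 without muscle library 2 (adjusted p = 0.0387). Macrophages also express Hmox1, and their markers did not all go one way. Lyz2 had 37 counts over muscle, 31 of them in muscle library 4, and 13 over lymph node. Ptprc had 245 over muscle, 219 of them in muscle library 4, and 47 over lymph node. Cd68 had 1, 3 and 0 counts in muscle libraries 2, 3 and 4 and 6, 17 and 34 in lymph node libraries 1, 2 and 3. It was called lower in muscle without muscle library 4 (-2.75, adjusted p = 0.0471), the fit in which it passed the filter, on its lymph node counts. Csf1r had 5 counts over muscle and 22 over lymph node, 15 of them in lymph node library 1. The summed list of 17 myeloid genes was 28.5, 54.6 and 1930 CPM in muscle and 30.8, 55.8 and 49.6 CPM in lymph node. The part of macrophages in the Hmox1 difference was not tested.

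Gpx3 (chr11:54902453-54910377), the secreted glutathione peroxidase, had the highest mean of the members in both tissues per merged length of all annotated exons, which can exceed a transcript. In muscle library 4 it lay below Sod3 and Txnip (75.6 against 89.2 and 78.3 CPM per kilobase of exon). It measured 727, 663 and 137 CPM in muscle libraries 2, 3 and 4, and 1200, 1733 and 1585 CPM in lymph node libraries 1, 2 and 3. Muscle library 4 lay far below muscle libraries 2 and 3, and the tissues did not overlap. The tissue means were 509 ± 324 CPM and 1506 ± 275 CPM (SD, n = 3 each), with a log2 fold change of -1.54 ± 0.48 (edgeR adjusted p = 0.135, not called). Without muscle library 4 the muscle mean was 695 ± 45.04 CPM (SD, 2 libraries) and the log2 fold change -1.12 ± 0.16 (adjusted p = 2.46e-04), a smaller difference that was called.

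The thioredoxin branch differed less. Txnip (chr3:96557957-96561883), an arrestin-like protein that binds thioredoxin and limits glucose uptake, measured 408, 438 and 245 CPM in muscle libraries 2, 3 and 4, and 489, 702 and 673 CPM in lymph node libraries 1, 2 and 3. The lowest lymph node library was 1.12-fold above the highest muscle library. Its log2 fold change was -0.76 ± 0.25 (edgeR adjusted p = 0.16, not called) and -0.56 ± 0.16 without muscle library 4 (adjusted p = 0.0335). An antisense model, Gm15441, covers part of Txnip and had 1 count in each tissue. Txnrd1 (chr10:82833951-82897712), the cytosolic thioredoxin reductase, measured 30.1, 25.4 and 21.5 CPM in muscle libraries 2, 3 and 4, and 69.7, 46.0 and 39.6 CPM in lymph node libraries 1, 2 and 3. Its tissues did not overlap either, at -0.96 ± 0.29 (adjusted p = 0.127, not called) and -0.88 ± 0.27 without muscle library 4 (adjusted p = 0.0433). Its substrate thioredoxin, Txn1, was not called (mean 164 ± 77.7 CPM for muscle and 190 ± 23.0 CPM for lymph node, adjusted p = 0.879).

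The superoxide dismutases overlapped between tissues. Sod3 (chr5:52363791-52371418), the extracellular enzyme, measured 497, 413 and 333 CPM in muscle libraries 2, 3 and 4, and 343, 442 and 401 CPM in lymph node libraries 1, 2 and 3. Both the highest and the lowest of the 6 values were muscle libraries. Its log2 fold change was 0.08 ± 0.20 (edgeR adjusted p = 0.919), with a 95% interval from -0.38 to 0.53, and 0.20 ± 0.15 without muscle library 4 (adjusted p = 0.489). Its sign changed between alternatives (-0.10 to 0.20). Sod2 (chr17:13006846-13040063), the mitochondrial manganese enzyme, measured 68.0, 76.1 and 40.3 CPM in muscle libraries 2, 3 and 4, and 100.5, 75.2 and 79.7 CPM in lymph node libraries 1, 2 and 3. The tissues overlapped, and the interval of its difference ran from -0.98 to 0.17 (-0.41 ± 0.26, adjusted p = 0.53). The difference without muscle library 4 was -0.25 ± 0.18 (adjusted p = 0.466), and 29.2% of its words occur in other genes. Sod1, the copper-zinc enzyme of the cytosol, averaged 194 ± 21.4 CPM over muscle libraries and 201 ± 9.68 CPM over lymph node libraries (-0.04 ± 0.18, adjusted p = 0.959).

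Nqo1 (chr8:107388225-107403206), the quinone reductase often read as a marker of NRF2 activity, was too low to test. It had 5, 3 and 4 counts in muscle libraries 2, 3 and 4, and 0, 14 and 10 counts in lymph node libraries 1, 2 and 3. The summed counts give a ratio of muscle to lymph node of 0.879 with a 95% counting interval from 0.401 to 1.83. The muscle mean of 5.23 CPM was 2.47 CPM without muscle library 4, beside 3.52 CPM in lymph node, and the ratio was 0.654 with an interval from 0.254 to 1.51. These intervals are of pooled counts and leave out the spread between libraries, from 0 to 14 counts in lymph node. A difference inside these intervals was not detectable at this depth, and a somewhat larger one may not be either.

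**Figure D3:**
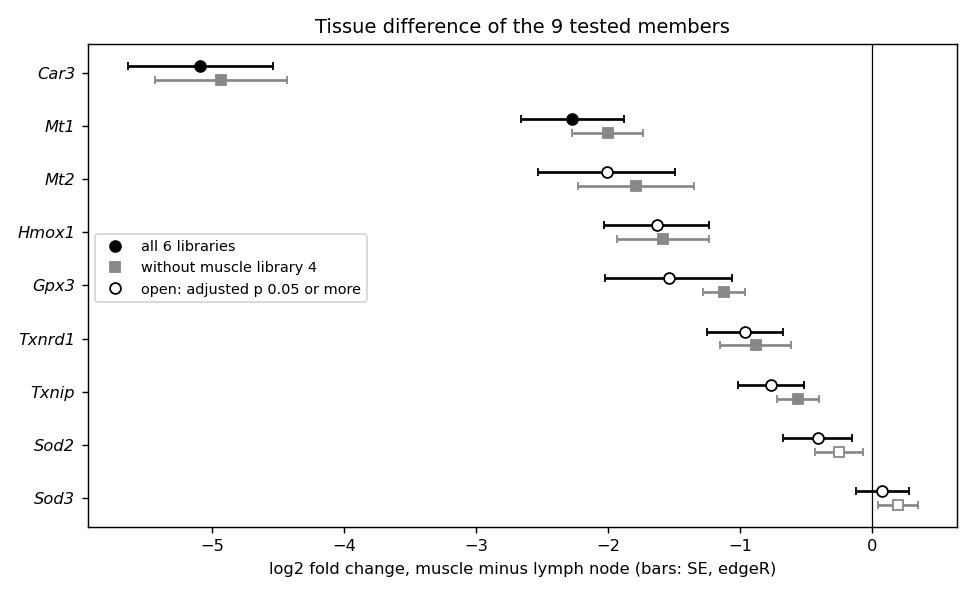
Log2 fold change, muscle minus lymph node, of the 9 tested members with its standard error from edgeR, for all 6 libraries (circles) and without muscle library 4 (squares). Filled symbols have an adjusted p under 0.05: 2 of 9 with all libraries and 7 of 9 without muscle library 4, and Car3 lies farthest from 0 at -5.09.

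Scaled by the merged length of all annotated exons, the order of the members differed between tissues. That length can exceed a transcript. For Mt1 it was 1246 bases, the whole span of the gene, so ranks between genes depend on the annotation. In muscle the means per kilobase of exon were 281 CPM for Gpx3, 116 for Txnip, 111 for Sod3, 54.7 for Mt1, 46.4 for Mt2, 12.8 for Hmox1, 6.14 for Sod2, 3.62 for Txnrd1, 3.37 for Nqo1 and 0.514 for Car3. The ranges of neighbours in this order overlapped except between Sod3 and Mt1 and between Nqo1 and Car3. In lymph node they were 831 CPM for Gpx3, 280 for Mt1, 209 for Mt2, 199 for Txnip, 106 for Sod3, 40.9 for Hmox1, 23.7 for Car3, 8.50 for Sod2, 7.30 for Txnrd1 and 2.27 for Nqo1. There the ranges of Mt1, Mt2 and Txnip ran into each other, as did those of Sod2 and Txnrd1. By this length Mt1 ranked 2 in lymph node and 4 in muscle.

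Within tissues the members fell into different library patterns. In lymph node, Mt1, Mt2, Sod2 and Txnrd1 were highest in library 1, and the other 6 were highest in library 2. Of all tested genes 35.6% were highest in lymph node library 1 and 31.1% in library 2. In muscle, 8 of the 10 were lowest in library 4, with Hmox1 and Nqo1 lowest in library 3, and 49.2% of all tested genes were lowest in muscle library 4. Across the 6 libraries the log2 CPM of Mt1 and Mt2 had r = 0.977, that of Mt2 and Txnrd1 0.961, and that of Gpx3 and Txnip 0.970. Sod3 had r of at most 0.438 with any tested member. Without muscle library 4 (5 libraries) Mt1 and Mt2 had r = 0.950, and Sod3 and Sod2 had r = -0.965. These values describe 6 or 5 points that share tissue and depth.

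Of 10189 named genes, those most like Mt1 over the 6 libraries were Zfand5 (r = 0.995), Nmnat3 (0.993) and Atp5g1 (0.992), and Mt2 ranked 54. Over the 5 libraries without muscle library 4 they were Kitl (0.998), Ndufaf8 (0.997) and Casp1 (0.997), so no gene of the first set stayed. For Hmox1 the nearest over 6 libraries were Midn (0.995), Gclc (0.977), which encodes the catalytic subunit of the enzyme that starts glutathione synthesis, and Hspa5 (0.976). For Car3 they were Slc1a5 (0.998), Egfr (0.997) and Tapbp (0.996), and for Gpx3 Sec11a (0.998), Mx2 (0.997) and Tcirg1 (0.997). None of these stayed among the nearest 3 over 5 libraries, which were Tmem248, Ctc1 and Tmem42 for Hmox1, Sertad1, Rarres2 and Ier3 for Car3, and Ftl1, Casp8ap2 and Dnaja1 for Gpx3. For Txnrd1, Hpse was among the nearest 3 over both 6 libraries (r = 0.996) and 5 libraries (0.995).

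In the rest of the redox and metal pathways most genes were not called. Of 134 tested genes in 8 lists, 10 (7.46%) were called lower in muscle and 0 higher, where all tested genes gave 2.86% and 1.46%. Their median log2 fold change was -0.17. The lists were chosen with earlier results of these data known, so these shares describe them and give no independent support. Without muscle library 4, 24 of 138 (17.4%) were lower and 7 higher, beside 7.58% and 4.79% of all tested genes. By list, the genes called lower then numbered 2 of 21 for metal handling, 3 of 23 for superoxide and peroxide enzymes, 1 of 15 for thioredoxin and glutaredoxin, 3 of 22 for glutathione, 6 of 28 for NRF2, 5 of 18 for haem and iron, 1 of 3 for carbonic anhydrases and 3 of 8 for oxidant-producing enzymes. The 7 called higher were 2 in metal handling and 1 each in 5 lists, with 0 in NRF2 and carbonic anhydrases.

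Among metal handling genes 1 of 21 fell: Cp, the copper-carrying ferroxidase ceruloplasmin, from 393 ± 64.4 CPM in lymph node to 104 ± 13.2 CPM in muscle (-1.92 ± 0.21, edgeR adjusted p = 0.00114). Of 18 tested haem and iron genes 2 fell, namely Alas1, the first enzyme of haem synthesis (-1.77 ± 0.24, adjusted p = 0.00383), and the metalloreductase Steap4 (-1.46 ± 0.25, adjusted p = 0.0106). The ferritin chains Fth1 and Ftl1 were not called with all libraries (-0.61 ± 0.19 and -0.96 ± 0.24, adjusted p = 0.129 and 0.0637), and both were without muscle library 4 (adjusted p = 0.0215 and 0.00252). For Ftl1 66.0% of the words occur in other genes, so its counts are uncertain.

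Of 22 tested superoxide and peroxide enzymes 1 fell, the peroxiredoxin Prdx6 (119 ± 22.3 CPM against 281 ± 20.3 CPM, -1.23 ± 0.20, adjusted p = 0.0082). Catalase (Cat, -0.26 ± 0.19), Prdx1 (-0.54 ± 0.20), Gpx1 (-0.60 ± 0.20) and Gpx4 (-0.12 ± 0.24) were not called. In the glutathione system 2 of 20 fell: Mgst1, a membrane glutathione transferase (-1.10 ± 0.18, adjusted p = 0.00793), and Ggt5, a cell surface enzyme that cleaves glutathione conjugates (-1.43 ± 0.30, adjusted p = 0.0284). The subunits of the rate-limiting enzyme of glutathione synthesis were low in both tissues, at 8.17 and 15.4 CPM for Gclc and 14.3 and 8.52 CPM for Gclm in muscle and lymph node, and neither was called. The cystine transporter Slc7a11 was below the filter.

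The NRF2 list had 1 call in 27 tested genes, the UDP-glucose dehydrogenase Ugdh (-1.29 ± 0.31, adjusted p = 0.0497). Nfe2l2, which encodes NRF2, averaged 128 ± 20.3 CPM over muscle libraries and 220 ± 6.54 CPM over lymph node libraries (-0.76 ± 0.19, adjusted p = 0.0562), and was called without muscle library 4 (-0.68, adjusted p = 0.00575). Its inhibitor Keap1 was not called (43.4 ± 0.99 CPM and 39.5 ± 5.55 CPM, adjusted p = 0.857). Srxn1, another NRF2 target, was not called (0.48 ± 0.33, adjusted p = 0.59), and 0 of 15 tested thioredoxin and glutaredoxin genes were called by edgeR, with 2 at an unadjusted p under 0.05, 1 called by DESeq2 and 0 by limma-voom. Car13, the other carbonic anhydrase called, fell with Car3 (-1.49 ± 0.23, adjusted p = 0.00755), out of 3 tested, while Car2 had 8 of its 9 muscle counts in muscle library 4. Of 8 tested oxidant-producing enzymes 2 fell, the monoamine oxidase Maob (-1.58 ± 0.22, adjusted p = 0.00439) and the aldehyde oxidase Aox3 (-2.16 ± 0.38, adjusted p = 0.0113).

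Of these 10 pathway genes, Cp, Alas1 and Maob were called in every fit that left out 1 library. Prdx6, Mgst1, Ggt5, Ugdh, Steap4, Car13 and Aox3 each lost the call in at least 1 such fit (adjusted p up to 0.078, 0.0755, 0.192, 0.214, 0.0792, 0.0741 and 0.0772). Each of these losses came from leaving out a library other than muscle library 4. Total-count scaling also ended the calls of Ggt5 (adjusted p = 0.0548) and Ugdh (0.0974), and upper-quartile scaling that of Ugdh (0.0662). All 10 were called without muscle library 4, at log2 fold changes between -2.28 (Aox3) and -1.0 (Ugdh).

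Immediate early and dissociation-related genes moved with tissue in the same libraries. Of 36 tested, 27 fell and 0 rose, with a median log2 fold change of -2.43, where all tested genes gave 2.86% and 1.46%. Without muscle library 4 30 fell and 0 rose (median -2.52), beside 7.58% and 4.79% of all tested genes. Some of the 36 passed the filter on lymph node counts and could be called only as lower in muscle. Examples are Ier5 and Nr4a3, with 12, 2 and 0 and 5, 2 and 3 counts in muscle libraries 2, 3 and 4. The summed level of the list was 4882 to 5556 CPM in muscle and 29114 to 30312 CPM in lymph node, so each member was compared between libraries that also differed in this sum. Fosb (-5.06 ± 0.26) and Atf3 (-5.01 ± 0.26) differed about as widely as Car3. Within lymph node Mt1 ranged 2.12-fold. The part of this program in the levels of the metallothioneins and Hmox1 was not tested.

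**Figure D4:**
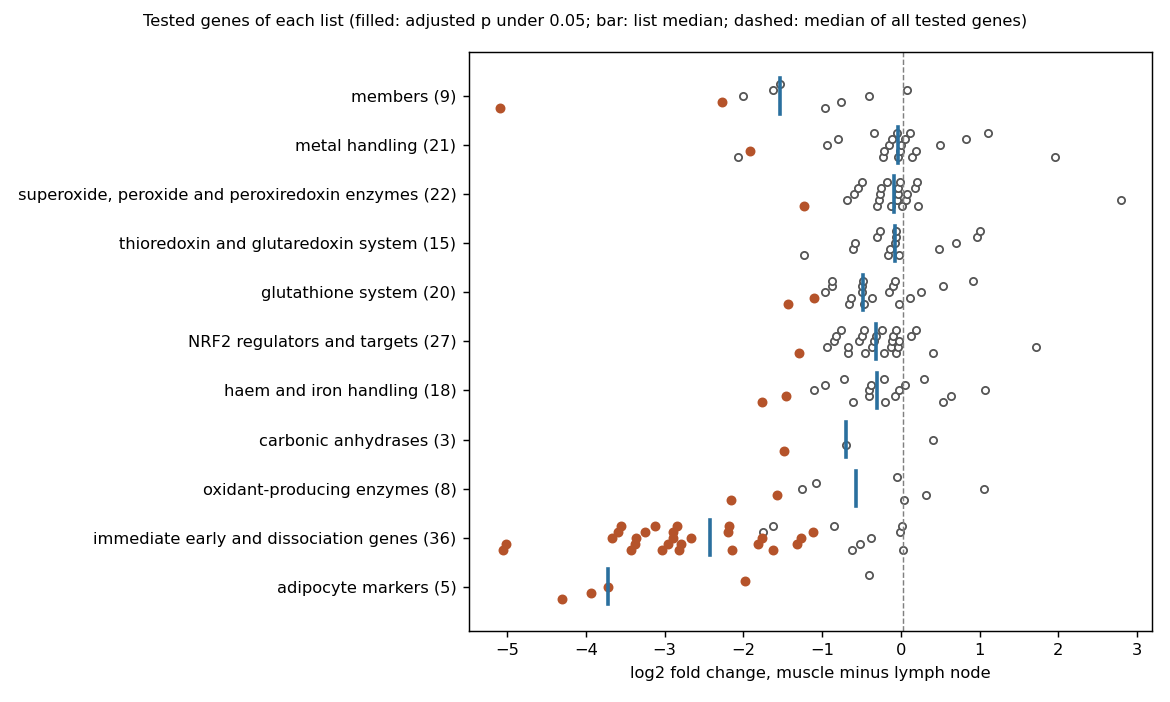
Log2 fold change, muscle minus lymph node, of each tested gene in the members, 8 redox and metal lists, the immediate early list and the fat cell markers, with the number tested in brackets. Filled points have an adjusted p under 0.05, blue bars are list medians (-1.54 for the members, -2.43 for the immediate early genes) and the dashed line is the median of all tested genes.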

How the data were processed

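RNA was measured in 3 muscle and 3 lymph node stromal cell libraries. The deposited table holds raw counts per gene symbol. The submitters' processing notes list STAR 2.5.4, featureCounts and mm10. Annotation release, strand setting and handling of reads with several alignments: not given in the sources used here. Per the labels' protocols, cDNA was made from an oligo(dT) primer, amplified by PCR and cut with a transposase, with no molecular identifiers described, so counting intervals cover counting error only. Lymph node columns match the sample titles, and muscle columns were used as muscle libraries without a link to single titles.

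Tissues were compared with edgeR 4.0.16 (R 4.3.3) by its two-sided quasi-likelihood F test, after filterByExpr had left 10823 genes and library sizes were scaled by TMM, with Benjamini-Hochberg adjustment over all tested genes and 0.05 as the threshold. A standard error is |log2 fold change| / √F, and 95% intervals of a difference use the t quantile of the fit. Alternatives were other scalings (RLE, total-count, upper-quartile), a stricter filter (10 CPM in 3 libraries or more) or none, limma-voom (limma 3.58.1), DESeq2 1.42.0 and leaving out each library. The fit was tested on simulated data. Exonic lengths, coordinates and shared 25-base words come from GENCODE M21 (GRCm38), where all 10 symbols were found, and promoters from RefSeq GRCm38.p6. Likeness is Pearson r of log2 CPM with a prior count of 2.

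The members and the gene lists were chosen with earlier results of these data known. The text names all 10 members, up to 4 called genes of each list by p, 18 genes given in advance, the cell type markers given there, and the 3 genes most like a member. Gm45774 and Gm15441 were named after their position over members was seen.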

Additional observations from a re-analysis of the deposited data

How the results depend on the processing

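Over 13 alternatives Car3 was called in 13, Mt1 in 10, Hmox1 in 5, Gpx3 in 4, Mt2 in 3, Txnip and Txnrd1 in 1 each, and Sod2 and Sod3 in 0. With all libraries, 2 members were called by the test as planned, 5 with no filter, 5 by DESeq2 (Mt1, Mt2, Gpx3, Hmox1 and Car3) and 4 by limma-voom (the same without Mt2). Leaving out 1 library gave between 1 and 7 called members and between 142 and 1391 called genes. Called genes overall were 468, 945 with no filter, 686 by DESeq2 and 630 by limma-voom. The highest count of members, 7, came without muscle library 4, and the lowest, 1, without lymph node library 1 or 2. No call of a named gene changed sign under any alternative. Over the 37 named genes with a fitted value, 25 comparisons with these 13 alternatives gained a call and 33 lost it. Total-count scaling moved the median of all tested genes to 0.101 and left the calls of Mt1 and Car3 in place. Why the calls differ between alternatives was not tested. Numbers 2 and 3 occur in column names of both tissues, but nothing ties the muscle numbers to the titles. Libraries with the same number had r across genes of deviations from tissue means of -0.03 (number 2) and 0.02 (number 3). All pairs of a muscle and a lymph node library lay between -0.06 and 0.07. Deviations of 3 libraries sum to 0 within a tissue, so a shared effect of the number could be missed. With the column number as a replicate block, an alternative chosen after the data were seen, 1530 genes and 6 members were called (Mt1, Mt2, Gpx3, Hmox1, Txnip and Car3). That fit draws the tissue difference from the 4 libraries numbered 2 or 3, since muscle library 4 and lymph node library 1 have a block each of their own. The muscle depth of 415460 counts in library 4 limits Car3, Nqo1 and Mt2, which rest on 0, 4 and 4 counts there.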
